A study of Mus musculus with 13 samples.

Results

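The genes of the Nodal pathway described here are 10 of the 45250 genes in the deposited RNAseq tables of differentiating mouse ES cells. They are the ligand Nodal, the antagonists Lefty1, Lefty2 and Cer1, the co-receptors Tdgf1 (Cripto) and Cfc1 (Cryptic) with the Tdgf1 pseudogene Tdgf1-ps1, the receptor Acvr2b, and the signal transducers Smad2 and Smad3. They were found by gene symbol, and were chosen for the part of the pathway in mesoderm formation and because Tdgf1-ps1 is much lower in WT haemogenic endothelium than in the WT haemangioblasts it comes from. The values behind that choice are the FPKM of Tdgf1-ps1 in the WT Flk-1+ libraries (44.3, 55.7 and 77.7) and in the WT HE1 libraries (listed at 0 in both), and for every member the step between these WT groups is given as a description, with no test.

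The study asked at which stage blood formation needs LMO2, a bridging protein of a DNA binding complex that also holds TAL1. WT (the CCB line), Lmo2-/- and Tal1-/- ES cells were differentiated to embryoid bodies, from which Flk-1+ cells, enriched for haemangioblasts, were isolated with magnetic beads. WT and Lmo2-/- Flk-1+ cells were cultured further in blast medium, and haemogenic endothelium 1 (HE1; Tie2+, Kit+, CD41-) was sorted by flow cytometry. There were 3 libraries (numbered 0, 1 and 2) for each Flk-1+ genotype and 2 (numbered 0 and 1) for each HE1 genotype, 13 in all. Each genotype came from a single named ES line, so genotype and line cannot be told apart, and p-values measure the spread between libraries of a line. No Tal1-/- HE1 was analysed here. Values are FPKM, fragments per kilobase of transcript scaled between libraries, so levels of different genes can be set side by side per length. In bulk libraries such as these, fewer cells of a type and less RNA per cell cannot be told apart.

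Nodal is a secreted protein of the TGF-beta superfamily that induces mesoderm and endoderm in the early embryo. It signals through activin receptors of type I and type II, and needs an EGF-CFC co-receptor, CRIPTO or CRYPTIC, for this. The receptors phosphorylate SMAD2 and SMAD3, which enter the nucleus with SMAD4 and act with partners such as FOXH1, while the LEFTY proteins and CER1 are secreted antagonists, and the Lefty genes and Nodal are themselves targets of the signal.

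In brief, the co-receptor Tdgf1 and its pseudogene, whose values cannot be fully separated, had the highest listed FPKM of the members in WT Flk-1+ cells. They stood lower in every library of both knockout genotypes, and were at or next to 0 in HE1. The antagonists Lefty2 and Cer1 were low and also lower in Lmo2-/- Flk-1+ cells, while the ligand Nodal was barely detected anywhere. The transducers Smad2 and Smad3 were present throughout, and Smad3 was highest in HE1 labelled Lmo2-/-. Between Lmo2-/- Flk-1+ cells and Lmo2-/- HE1, Tdgf1, Tdgf1-ps1 and Cfc1 were called lower, against 2.38% of all genes. Smad3 was called higher, against 17.2% of all genes, and its call was lost under quantile normalization and some other alternatives. For Tdgf1, Tdgf1-ps1 and Cfc1 the calls are only a description, as these genes entered the test through Flk-1+ libraries alone. No member was called between genotypes. Of all genes, 0.0% were called between WT and either knockout in Flk-1+ cells, the targeted genes included, and 3.01% between the HE1 genotypes.

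Tdgf1 and Tdgf1-ps1 are nearly identical over the coding sequence, and this sets how their values can be read, so the sequences are shown first. Tdgf1 lies on the minus strand of chromosome 9 of GRCm38 (chr9:110939603-110946158 as the files give it), and Tdgf1-ps1, a processed pseudogene, on the plus strand of chromosome 16 (chr16:3730510-3731022 in GENCODE M21). The annotated pseudogene starts at the start codon and could be aligned to the first 513 bases of the spliced Tdgf1 coding sequence. Its last 240 bases (chr16:3730783-3731022) are shown beside bases 274 to 513 of Tdgf1, which lie in exons within chr9:110940707-110942546, because they hold 5 of the 7 differences between the copies. Both are from GENCODE M21 and run from 5′ to 3′, with capitals at the differences.
Tdgf1: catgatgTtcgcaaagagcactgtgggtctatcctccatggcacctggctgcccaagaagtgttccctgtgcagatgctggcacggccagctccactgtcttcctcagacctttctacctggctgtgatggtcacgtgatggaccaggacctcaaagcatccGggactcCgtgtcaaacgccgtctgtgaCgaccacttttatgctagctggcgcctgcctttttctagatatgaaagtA
Tdgf1-ps1: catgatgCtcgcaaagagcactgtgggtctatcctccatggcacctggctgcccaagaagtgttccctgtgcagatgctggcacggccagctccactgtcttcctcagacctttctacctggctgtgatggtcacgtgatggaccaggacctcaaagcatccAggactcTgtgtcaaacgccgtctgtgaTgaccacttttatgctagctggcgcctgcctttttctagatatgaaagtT

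The alignment of 513 bases held no gap, and 98.6% of them were identical. Counted from 1 at the A of the start codon, with the base of Tdgf1 first, the differences are C50T, T150C, T281C, G436A, C443T, C464T and A513T. The longest identical run was 154 bases. With reads of 100 bases, 86 of the 414 possible windows of the pseudogene (20.8%) occurred unchanged in the Tdgf1 transcript, and 364 carried at most 2 differences. The likeness runs past the annotated pseudogene: bases 66 to 1853 of the 1932-base Tdgf1 transcript could be aligned to chr16:3730260-3732622, with 97.2% identity over 1764 aligned bases and an inserted stretch of 580 bases on chromosome 16. How the authors' alignment and counting shared reads between the gene and this copy is not given in the sources used here, so the separate FPKM of Tdgf1 and Tdgf1-ps1 are uncertain. Another copy, Tdgf1-ps2, differed at 35 of 494 aligned bases and shared no window of 100 bases with the Tdgf1 transcript. It was listed at 0 in 11 of the 13 libraries. Its listed locus spans 100942 bases and the copy 505, so this FPKM may not be that of the copy alone.

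**Figure D1:**
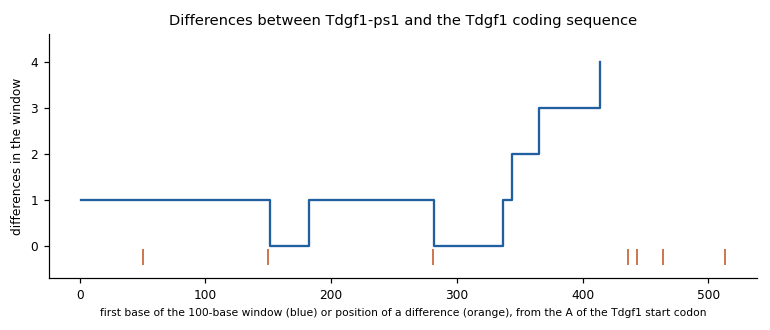
Number of differences between Tdgf1-ps1 and the Tdgf1 coding sequence in each window of 100 bases (blue line, vertical axis), by the first base of the window counted from the A of the start codon (horizontal axis, in bases); orange ticks mark the 7 differing positions. Of the 414 windows, 343 hold at most 1 difference, and 4 of the differences lie in the last stretch, where a window holds up to 4.

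The libraries were first compared with their labels. Lmo2 had 22.8, 30.8 and 21.6 FPKM in WT Flk-1+ cells and 2.63, 6.48 and 2.17 in Lmo2-/- Flk-1+ cells. Tal1 had 37.4, 25.6 and 22.0 FPKM in WT and 2.74, 3.41 and 2.88 in Tal1-/- Flk-1+ cells. In both cases every library of the knockout was below every WT library. In HE1, Lmo2 had 4.30 and 20.6 FPKM in the libraries labelled WT and 6.42 and 0 in those labelled Lmo2-/-, so it did not separate them, and the HE1 genotypes below are those of the labels. Kdr, which encodes Flk-1, was at 68.7 FPKM or more in all 13 libraries. Tek and Kit, which encode Tie2 and Kit, together had 166 to 227 FPKM in HE1 against 3.22 to 10.7 in Flk-1+ cells. Itga2b encodes CD41, whose absence defined HE1, and was at 10.4 to 19.8 FPKM in 3 of the 4 HE1 libraries. The endothelial genes Cdh5, Pecam1, Emcn and Esam summed to 454 to 589 FPKM in HE1, against at most 8.10 in Flk-1+ cells. Most of the HE1 sum was Cdh5 and Pecam1. Emcn was at 0 in both HE1 libraries labelled Lmo2-/-, against 7.84 and 8.02 FPKM in those labelled WT. Esam and Cdh5 were also lower in both HE1 libraries labelled Lmo2-/-, and Pecam1 was higher. The mesoderm genes Hand1, Pdgfra, Tbx6 and Msgn1 summed to 76.5 to 288 FPKM in Flk-1+ cells. In HE1 they summed to 3.97 to 20.7 in the libraries labelled WT and 154 to 305 in those labelled Lmo2-/-. Their sum thus did not separate the stages in Lmo2-/-. Tbx6 was lower in every Lmo2-/- HE1 library than in every Lmo2-/- Flk-1+ library, Pdgfra was higher, and Hand1 overlapped. Msgn1 was at 0 in both stages of Lmo2-/-. Steps of single fragments are visible in low genes, and 1 fragment was worth 0.610 to 1.57 times the median library's FPKM in 12 libraries and 3.77 times in Lmo2-/- HE1 library 1. By this measure, which comes from scaled FPKM and not from read totals, this library was the shallowest. It listed 9694 genes above 0, against 11861 to 15641 in the others.

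Genes entered the test where 2 or more libraries reached 1 FPKM, which held for 13802 genes, 8 of the 10 described here among them but not Nodal and Lefty1. Several passed this filter only through the group in which they are high (Cer1 through WT Flk-1+ cells; Tdgf1, Tdgf1-ps1, Cfc1 and Lefty2 through Flk-1+ cells), so counts over the tested genes describe them and support nothing. A gene was called when its Benjamini-Hochberg adjusted p in limma was below 0.05 and its mean exceeded 10 FPKM in either group. Fold changes are differences of mean log2(FPKM + 1), which understates the change of low genes.

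**Figure D2:**
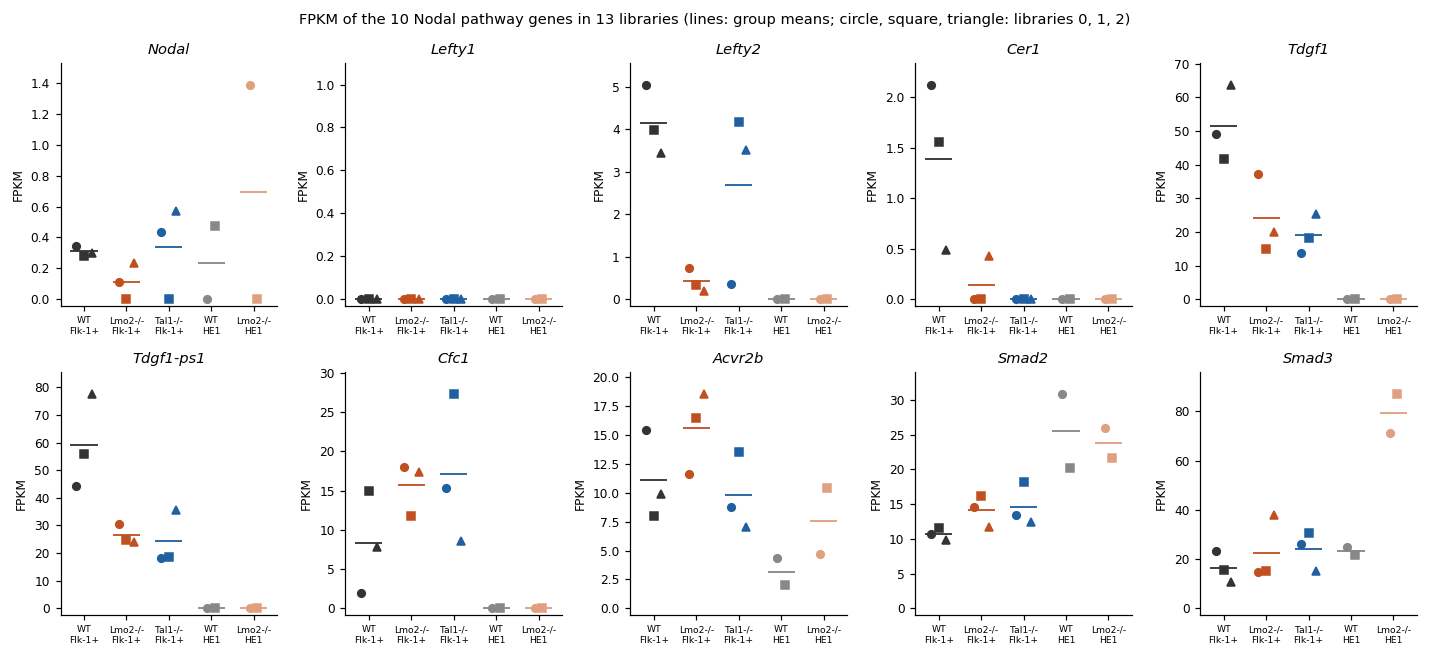
FPKM (vertical axes, linear, each with its own range) of the 10 genes in the 13 libraries, grouped by genotype and stage; each point is a library and each line a group mean. Tdgf1 and Tdgf1-ps1 are highest in WT Flk-1+ cells and at or next to 0 in HE1, Lefty1 is at 0 throughout, and Smad3 is highest in HE1 labelled Lmo2-/- (71.1 and 87.2 FPKM).

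The ligand Nodal (XLOC_003595, chr10:61417972-61425338) was close to the limit of detection. Its FPKM was 0.348, 0.283 and 0.300 in WT, 0.110, 0 and 0.232 in Lmo2-/- and 0.438, 0 and 0.571 in Tal1-/- Flk-1+ cells. In HE1 it was 0 and 0.473 in the libraries labelled WT and 1.39 and 0 in those labelled Lmo2-/-. All groups overlapped except WT and Lmo2-/- Flk-1+ cells, where each Lmo2-/- library was below each WT library. These values are whole multiples of a common step in each library, which gives the number of fragments behind them if 1 step is 1 fragment. The fragments were 3, 4 and 3 in WT, 1, 0 and 2 in Lmo2-/- and 4, 0 and 6 in Tal1-/- Flk-1+ cells, and 0, 3, 10 and 0 in the HE1 libraries in the order above. The highest FPKM thus rests on 10 fragments, and no difference in Nodal between groups was detectable at this depth.

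Lefty1 and Lefty2, which encode inhibitors that Nodal signalling itself induces, lie beside each other on chromosome 1, 35918 bases apart, and their coding sequences share 92.7% of aligned bases. Of the 1008 windows of 100 bases in the Lefty1 coding sequence, 73 (7.24%) occur unchanged in that of Lefty2. Lefty1 (XLOC_001531, chr1:180935022-180938400) was listed at 0 in all 13 libraries. Lefty2 (XLOC_001529, chr1:180893108-180899103) was detected in all 9 Flk-1+ libraries and listed at 0 in all 4 HE1 libraries.

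Lefty2 had 5.05, 3.98 and 3.44 FPKM in WT Flk-1+ cells, from 52, 67 and 41 fragments. In Lmo2-/- Flk-1+ cells it had 0.740, 0.344 and 0.195 FPKM, from 8, 3 and 2 fragments, so the genotypes were apart. The difference was -1.86 on the log2(FPKM + 1) scale (SE 0.475, 95% confidence interval -2.89 to -0.84), the largest of the tested members between WT and Lmo2-/- Flk-1+ cells. It was not called (limma, unadjusted p = 0.00172, adjusted p = 1, 0.177 to 1 over the alternatives; two-sided exact permutation test over libraries, p = 0.10, below which 3 against 3 cannot go). Tal1-/- Flk-1+ cells had 0.367, 4.17 and 3.52 FPKM, from 4, 41 and 44 fragments. Tal1-/- library 0 was thus at the Lmo2-/- level and the other 2 were at the WT level. Between the knockouts the difference was 1.17 (SE 0.475, limma adjusted p = 0.780; 0.82 to 1.78 with single libraries left out), and the groups overlapped.

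Cer1 (XLOC_026670, chr4:82881751-82885148) encodes Cerberus, a secreted protein that binds Nodal and other ligands and is made by early endoderm. It had 2.13, 1.56 and 0.490 FPKM in WT Flk-1+ cells, from 15, 18 and 4 fragments. Of the other 10 libraries only Lmo2-/- Flk-1+ library 2 held any, at 0.426 FPKM from 3 fragments. Against WT, the difference in Lmo2-/- Flk-1+ cells was -1.02 (SE 0.327, limma adjusted p = 1), and in Tal1-/- Flk-1+ cells, where the gene was listed at 0 in every library, the limma adjusted p was 0.439. For both comparisons the exact permutation test gave p = 0.10.

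**Figure D3:**
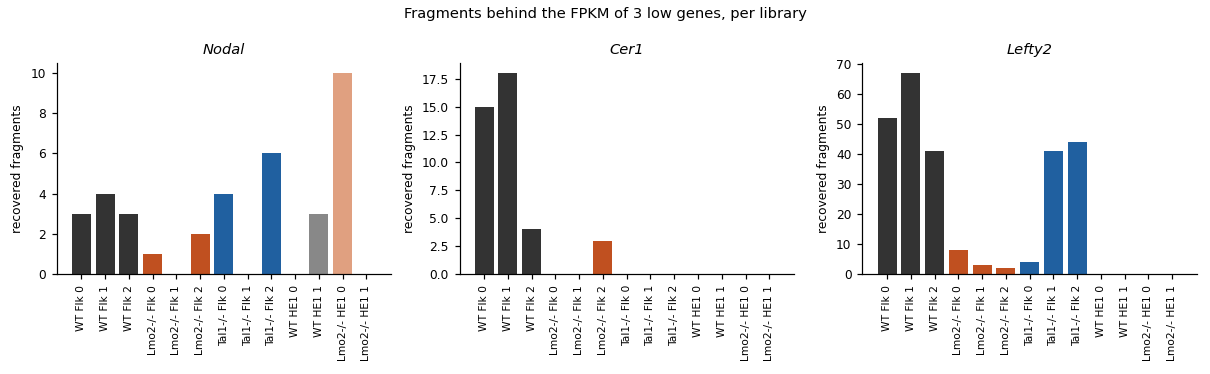
Fragments recovered from the FPKM steps (vertical axes, counts from 0) for Nodal, Cer1 and Lefty2 in each of the 13 libraries; colours mark genotype and stage as in the plot of FPKM by library. Nodal reaches 10 fragments in a single library, Cer1 is nearly limited to WT Flk-1+ cells, and Lefty2 holds 41 or more fragments in the WT libraries and in 2 Tal1-/- libraries.

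Tdgf1 (XLOC_041037) encodes CRIPTO, the co-receptor of the primitive streak and of ES cells. It had 49.1, 41.7 and 63.8 FPKM in WT, 37.3, 15.1 and 20.0 in Lmo2-/- and 13.7, 18.1 and 25.4 in Tal1-/- Flk-1+ cells. Every knockout library was below every WT library, and the knockouts overlapped each other. In HE1 it was listed at 0 in 3 libraries and at 0.172 FPKM in WT HE1 library 1. The order of the mean levels was therefore WT (51.6 ± 11.2, SD, n = 3), Lmo2-/- (24.1 ± 11.7) and Tal1-/- Flk-1+ cells (19.1 ± 5.90) and then HE1, with the knockouts overlapping each other and the HE1 groups likewise.

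Tdgf1-ps1 (XLOC_013712) followed the same order. It had 44.3, 55.7 and 77.7 FPKM in WT, 30.5, 24.8 and 24.1 in Lmo2-/- and 18.2, 18.7 and 35.6 in Tal1-/- Flk-1+ cells, and was listed at 0 in all 4 HE1 libraries. The listed FPKM of the pseudogene was 0.816 to 1.65 times that of the gene across the 9 Flk-1+ libraries. How reads were shared between the copies is not known, so these ratios do not give the transcription of the pseudogene. These ratios overlapped between the 3 genotypes.

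Between WT and Lmo2-/- Flk-1+ cells the difference was -1.14 for Tdgf1 (SE 0.394, 95% confidence interval -1.99 to -0.29) and -1.10 for Tdgf1-ps1 (SE 0.359, -1.88 to -0.33). Between WT and Tal1-/- Flk-1+ cells it was -1.41 for Tdgf1 (SE 0.394, -2.26 to -0.56) and -1.29 for Tdgf1-ps1 (SE 0.359, -2.06 to -0.52). In limma the adjusted p was 1 for both genes against Lmo2-/- and 0.439 for both against Tal1-/-, and the exact permutation test gave p = 0.10 in all of these. Over the alternatives the lowest adjusted p of either gene against either knockout was 0.136. Between the knockouts the interval ran from -1.12 to 0.58 for Tdgf1 (limma adjusted p = 0.988), which leaves room for differences of either sign. Both knockout comparisons use the same WT libraries, which are also those by which the genes were chosen.

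Cfc1 (XLOC_000210), the other co-receptor, did not share this order. It had 2.01, 15.0 and 7.82 FPKM in WT, 18.0, 11.8 and 17.4 in Lmo2-/- and 15.3, 27.3 and 8.62 in Tal1-/- Flk-1+ cells, and was listed at 0 in all 4 HE1 libraries. The Flk-1+ groups overlapped, and the WT libraries alone spanned 2.01 to 15.0 FPKM. The difference was 1.13 for either knockout against WT (SE 0.576, limma adjusted p = 1 for Lmo2-/- and 0.870 for Tal1-/-), and it fell to 0.47 without WT Flk-1+ library 0, in which the gene was lowest. In the files the gene spans chr1:34535648-34560943, past its GENCODE end at 34544313, and opposite-strand genes, Prss40 among them, lie in that span. The libraries were made with a stranded kit, but whether strand was used in the counting is not given in the sources used here.

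The type II receptor Acvr2b (XLOC_040067, chr9:119402444-119433501), which binds activins and Nodal, had 15.4, 7.99 and 9.94 FPKM in WT, 11.6, 16.5 and 18.6 in Lmo2-/- and 8.78, 13.5 and 7.05 in Tal1-/- Flk-1+ cells. These ranges overlap. In HE1 it had 4.33 and 1.98 FPKM in the libraries labelled WT and 4.73 and 10.4 in those labelled Lmo2-/-. All HE1 libraries labelled Lmo2-/- were above those labelled WT and below the Lmo2-/- Flk-1+ libraries. Neither difference was called (limma, HE1 genotypes 1.02, SE 0.518, adjusted p = 0.287; Lmo2-/- stage step -1.02, SE 0.473, adjusted p = 0.131). The latter was called under quantile normalization (-1.66, adjusted p = 0.0240). Both values moved when single libraries were left out. Between the HE1 genotypes the difference was 0.52 without Lmo2-/- HE1 library 1, 0.60 without WT HE1 library 1 and 1.51 without Lmo2-/- HE1 library 0, and the stage step was -0.52 without Lmo2-/- HE1 library 0 and -1.51 without library 1.

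Smad2 (XLOC_016890, on chromosome 18), which carries the Nodal signal to the nucleus, had 10.7, 11.5 and 9.86 FPKM in WT, 14.6, 16.2 and 11.8 in Lmo2-/- and 13.4, 18.1 and 12.4 in Tal1-/- Flk-1+ cells. Both knockouts were above WT in every library, by 0.37 and 0.41 (SE 0.306 for both; limma adjusted p = 1 and 0.955; exact permutation test, p = 0.10). In HE1 it had 30.9 and 20.1 FPKM in the libraries labelled WT and 26.0 and 21.6 in those labelled Lmo2-/-, which overlap. Its level in every HE1 library was thus above that in every Flk-1+ library. The Lmo2-/- stage step, 0.71 (SE 0.343, limma adjusted p = 0.143), was not called and turned to -0.19 under quantile normalization.

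Smad3 (XLOC_040571, chr9:63646767-63757994), the other transducer, had 23.1, 15.4 and 10.5 FPKM in WT, 14.6, 15.3 and 38.0 in Lmo2-/- and 26.1, 30.7 and 15.3 in Tal1-/- Flk-1+ cells. These groups overlapped. In HE1 it had 25.1 and 21.5 FPKM in the libraries labelled WT and 71.1 and 87.2 in those labelled Lmo2-/-, the latter above the other 11 libraries. Between the HE1 genotypes the difference was 1.72 (SE 0.511, 95% confidence interval 0.62 to 2.82), against a median of 0.15 over all tested genes. It was not called (limma adjusted p = 0.0768). With single libraries left out the difference ran from 1.57 to 1.86.

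**Figure D4:**
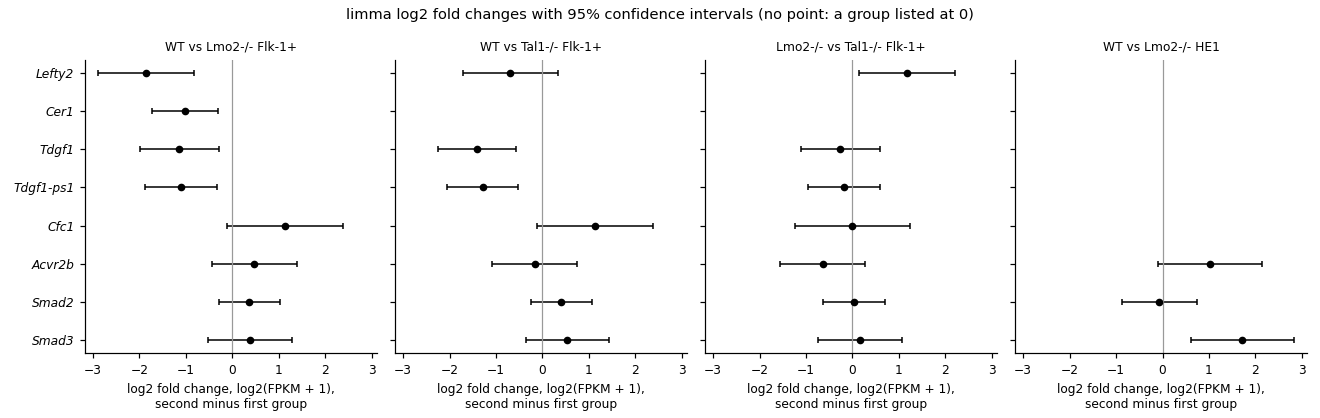
Log2 fold changes of the 8 tested genes with 95% confidence intervals from limma (horizontal axis, differences of mean log2(FPKM + 1), second group minus first) in 4 comparisons; no point is drawn where a group is listed at 0. Tdgf1, Tdgf1-ps1, Lefty2 and Cer1 lie below 0 in Lmo2-/- Flk-1+ cells, and Smad3 lies at 1.72 in HE1.

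Among all tested genes, few were called between the Flk-1+ genotypes. The targeted genes were not called either, with Lmo2 at -2.55 in Lmo2-/- and Tal1 at -2.84 in Tal1-/- (limma adjusted p = 0.101 for Tal1). The absence of a call therefore does not show that a gene was unchanged. Between WT and Lmo2-/- limma called 0 of 13802 genes (0.0%), with 307 at an unadjusted p below 0.05 and 0 to 2 calls under the alternatives. The median difference was -0.33 for the 8 tested members and -0.01 for all genes. In 4 of the 8 (Lefty2, Cer1, Tdgf1 and Tdgf1-ps1) all Lmo2-/- libraries were lower, against 4.22% of all genes, and in 1 (Smad2) all were higher, against 3.99%. Between WT and Tal1-/- limma also called 0 (0.0%), with 843 at an unadjusted p below 0.05 and 0 to 15 calls under the alternatives. The median was -0.43 for the members and -0.01 for all genes. All Tal1-/- libraries were lower in 3 (Cer1, Tdgf1 and Tdgf1-ps1), against 7.4%, and higher in Smad2, against 5.25%. Tdgf1 and Tdgf1-ps1 are nearly identical in sequence, so in these counts, and in those below, they are not 2 independent members. Between the knockouts 2 genes were called (0.0145%), no member among them. In 0 of the 8 were the libraries apart, against 6.59% of all genes higher and 6.66% lower in Tal1-/- (member median -0.09, all genes 0.00).

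Markers of other cell types also differed between the genotypes. Summed over 8 genes of undifferentiated ES cells, where Tdgf1 is also expressed, the FPKM was 16.4 to 17.3 in WT, 10.9 to 11.7 in Lmo2-/- and 17.9 to 32.2 in Tal1-/- Flk-1+ cells, with Pou5f1 at 2.62 FPKM or more in each library. In HE1 the sum was 2.49 to 3.58, most of it Klf4, with Pou5f1, Nanog, Sox2, Zfp42 and Dppa5a at 0. The mean of Klf4 was 2.07 FPKM in WT and 4.23 in Lmo2-/- Flk-1+ cells, which overlapped, and 3.41 in HE1 labelled WT. Against WT Flk-1+ cells, the means of Pou5f1, Nanog and Dppa5a were lower in Lmo2-/-. Those of Klf4, Fgf4, Esrrb, Sox2 and Zfp42 were higher. In Tal1-/- Flk-1+ cells the means of Pou5f1 and Esrrb were lower than in WT and those of the rest higher. For 6 endoderm genes the sum was 9.48 to 31.0 in WT, 5.50 to 19.7 in Lmo2-/- and 1.85 to 7.19 in Tal1-/- Flk-1+ cells. Most of it in WT was Sox7, which endothelium also expresses. Apoa1 was at 0 in all of them, and Ttr and Afp in WT. Against WT, the means of Sox7 and Epcam were lower in both knockouts, and that of Afp was higher. The mean of Cldn6 was lower in Lmo2-/- and higher in Tal1-/-, and that of Ttr was higher in Lmo2-/- only. For 5 genes of fibroblasts the sum was 6.50 to 14.3 in WT, 20.8 to 28.8 in Lmo2-/- and 22.1 to 35.2 in Tal1-/-. Most of it was Col1a1. Postn was at 0 in every WT and Lmo2-/- Flk-1+ library, and Col3a1 in every WT Flk-1+ library. Col1a2 and Thy1 overlapped between WT and each knockout. The ES cells were maintained on fibroblasts, but were passaged without them before differentiation, and the Flk-1+ cells were then selected on beads. For the 4 endothelial genes the sum was 4.89 to 8.10 in WT, 1.84 to 7.54 in Lmo2-/- and 0.374 to 3.72 in Tal1-/-, so that Tal1-/- lay below WT and Lmo2-/- overlapped it, with Emcn at 0 in all 3 genotypes and Esam at 0 in Tal1-/-. For 5 genes of CD41+ cells and blood it was 4.06 to 7.70, 0.930 to 2.55 and 0 to 3.12, with Ptprc and Hbb-bh1 at 0 in all 3 genotypes. The part of these cells in the differences of Tdgf1, Lefty2 and Cer1 was not tested.

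The step from Lmo2-/- Flk-1+ cells to HE1 labelled Lmo2-/- uses no library by which the genes were chosen. Of the 8 tested members, 3 were called lower, against 2.38% of all genes, and 1 higher, against 17.2%. Tdgf1 (24.1 ± 11.7 FPKM, SD, n = 3), Tdgf1-ps1 (26.5 ± 3.49) and Cfc1 (15.7 ± 3.43) fell to 0 in both HE1 libraries. These 3 entered the test only through Flk-1+ libraries, so their calls, made under every alternative run, describe them and support nothing. Smad3 rose by 1.89 (SE 0.467, limma adjusted p = 0.0105), or by 1.59 relative to the median of all genes, 0.30. The call on Smad3 was lost without Lmo2-/- HE1 library 1 (1.75, adjusted p = 0.0666), under quantile normalization (0.81, adjusted p = 0.266), and with array weights or a separate fit. The median of the 8 was -0.75, and their libraries were apart in 5 that were lower, against 15.1% of all genes, and 2 that were higher, against 31.9%. The same step in WT, given as a description, went from 51.6 ± 11.2 to 0 and 0.172 FPKM for Tdgf1, from 8.26 ± 6.49 to 0 for Cfc1, and from 16.3 ± 6.33 to 25.1 and 21.5 for Smad3; in WT 834 genes (6.04%) were called higher and 130 (0.942%) lower.

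In HE1, 415 genes (3.01%) were called between the genotypes and no member was. This comparison shares the WT HE1 libraries with the choice of the genes. Smad3 and Acvr2b were the 2 members whose libraries labelled Lmo2-/- were all higher, against 25.9% of all genes, and 0 were lower, against 13.8%. The median of the 8 tested members, 5 of which were listed at 0 in all libraries of a genotype, was 0.00. Fibroblast genes moved with Smad3, with a sum of 29.2 to 35.7 FPKM in HE1 labelled WT and 174 to 755 in HE1 labelled Lmo2-/-, where Col1a1 and Postn were high and Thy1 was at 0. For the mesoderm genes, 4 of 5 found, it was 3.97 to 20.7 and 154 to 305, with Tbx6 and Msgn1 at 0 in both. The part of such cells in the level of Smad3 was not tested.

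Of 23 other genes of the pathway, 22 were found by symbol and 18 were tested. The alternative ligands and the other type I receptor gene were next to absent, with Gdf3 and Acvr1c listed at 0 throughout and Inhba and Inhbb at no more than 1.12 FPKM. No gene of this list was called between genotypes in Flk-1+ cells or in HE1. The list's median difference against WT was -0.02 in Lmo2-/- and -0.04 in Tal1-/- Flk-1+ cells, with all genes at -0.01, and in HE1 it was 0.48, with all genes at 0.15. From Lmo2-/- Flk-1+ cells to HE1, 6 of the 18 were called higher and none lower (median 0.75, all genes 0.30). They were the type I receptor gene Acvr1b, the co-repressor Ski, the repressor Tgif2, the phosphatase Ppm1a and the ubiquitin ligases Smurf2, which shares its entry with Gm27322, and Trim33. Trim33 went from 40.8 to 110 FPKM (1.41, SE 0.295, limma adjusted p = 0.00448) and Ski from 25.6 to 87.5 FPKM (1.75, SE 0.369, adjusted p = 0.00453). These rises stand beside the 17.2% of all genes called higher in this step.

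Genes that respond to Nodal in the primitive streak and early endoderm, 15 listed and 14 tested, gave no call between the Flk-1+ genotypes. Their median against WT was -0.32 in Lmo2-/- and -0.80 in Tal1-/-. In 3 of 14 (Eomes, Lhx1 and Hhex) every Lmo2-/- library was below WT, against 4.22% of all genes, and in 6 (these 3 with Otx2, Sox17 and T) every Tal1-/- library was, against 7.4%. These are named after their values were seen. From Lmo2-/- Flk-1+ cells to HE1 4 were called lower, against 2.38% of all genes: the T-box genes Eomes and T and the homeobox genes Lhx1 and Mixl1. These 4 passed the filter only through Flk-1+ cells, so their calls describe them and support nothing. The homeobox gene Hhex was called higher (2.87, limma adjusted p = 0.00178), in a step where 17.2% of all genes were. The median of the list was -1.45. Eomes went from 56.6 to 0.299 FPKM and Lhx1 from 32.0 to 0.0601 FPKM.

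**Figure D5:**
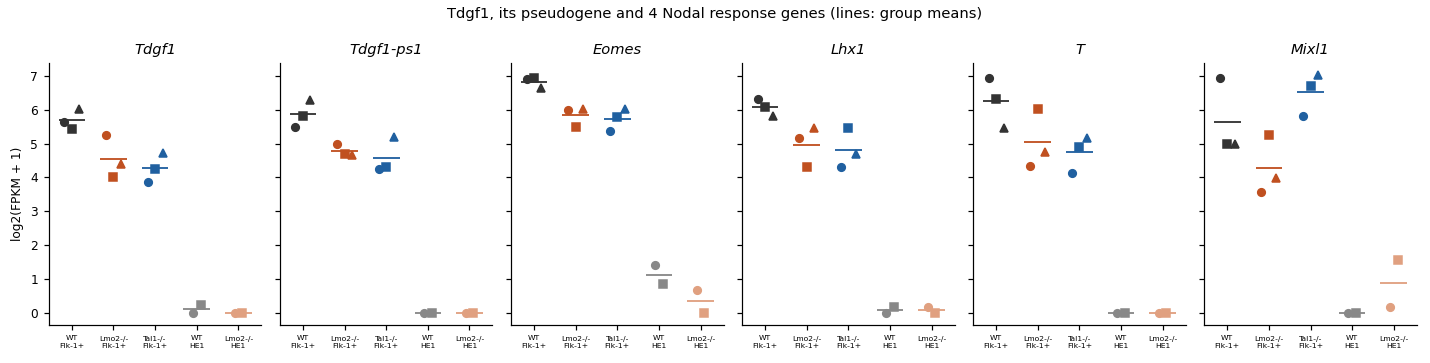
Levels of Tdgf1, Tdgf1-ps1 and 4 Nodal response genes as log2(FPKM + 1) (vertical axis) in the 13 libraries by genotype and stage; points are libraries and lines group means. All 6 are lower in every HE1 library than in every Flk-1+ library, with the highest HE1 points in Mixl1 (1.98 FPKM in Lmo2-/- library 1) and Eomes (1.64 FPKM in WT library 0), and Mixl1 differs from the rest in that it is not lower in Tal1-/- Flk-1+ cells than in WT.

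The genes whose log2(FPKM + 1) was most like that of Tdgf1 over the 13 libraries were Tdgf1-ps1 (Pearson r = 0.994), Lhx1 (0.986), Eomes (0.985), T (0.959) and Vstm2b (0.957). How reads were shared between Tdgf1 and Tdgf1-ps1 is not known, so the r of this pair supports nothing. Tdgf1-ps1, Lhx1, Eomes and T were at 1.64 FPKM or less in all 4 HE1 libraries, as Tdgf1 was. Over the 9 Flk-1+ libraries alone r was 0.916 for Tdgf1-ps1, 0.889 for Eomes, 0.780 for Lhx1, 0.469 for T and 0.208 for Vstm2b. For Nodal the nearest genes were Amd2 (r = 0.942), Trmt44 (0.934), 3110080O07Rik (0.933), Gorab (0.891) and Zbtb8a (0.880), with r at 0.652 to 0.831 over the 9 Flk-1+ libraries, for a gene with at most 10 fragments in a library.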

How the data were processed

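RNAseq libraries (TruSeq Stranded mRNA, paired ends) of Flk-1+ cells and HE1 were used. The authors mapped reads to GRCm38/mm10 with TopHat 2.0.9, assembled transcripts with Cufflinks 2.0.0 and merged them, and deposited FPKM per library from Cuffnorm and, with replicates pooled, per condition from Cuffdiff 2.0.1. The condition table served only for symbols and positions. A further deposited table, with the authors' fold changes and p-values, was not used. Of the per-sample columns 0 were left out. Fragment totals are not in the tables, so no counting intervals are given.

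Genes with a locus over 200 bp that reached 1 FPKM in 2 or more libraries (13802 of 45250) were fitted with limma 3.58.1 (R 4.3.3; mean-variance trend, log2(FPKM + 1), all 13 libraries, group as factor, two-sided, Benjamini-Hochberg over all genes). The fit was tested on simulated data. Single members had exact permutation tests. Alternatives were a pseudocount of 0.1, no or a stricter filter, quantile normalization, separate fits, array weights, no FPKM criterion, a replicate block and each library left out. Relative fragment values came from the most frequent ratio, between libraries, of genes below 2 FPKM, chosen after seeing the data, and steps within 0.1 of a whole number were accepted. Sequences are from GENCODE M21, aligned with Biopython 1.88. Python 3.11.15, pandas 2.3.3, numpy 2.4.6 and matplotlib 3.10.9 did the rest.

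The members, lists and tests were chosen with earlier results of these data known. All members are described, and of the lists every gene called except an item that is not reported here, with values for at most 3 in a comparison. The genes named as most like Tdgf1 and Nodal are the 5 with the highest Pearson r. Each group is 1 GEO sample holding several libraries, which the study describes as biological replicates, and the columns of the table name them. ChIP and DNase data were not analysed here.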

Additional observations from a re-analysis of the deposited data

How the results depend on the processing

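The number of members called stayed at 0 in the 3 comparisons of Flk-1+ genotypes under each alternative, including each library left out. Between the HE1 genotypes it was 0 to 1 with single libraries left out, with Smad3 called without Lmo2-/- HE1 library 0. Between Lmo2-/- Flk-1+ cells and HE1 it was 3 to 4 with single libraries left out, and 3 with array weights or separate fits. Small differences turned in sign. Under quantile normalization Smad2 was at -0.0086 between the knockouts and -0.19 between the Lmo2-/- stages, and with array weights Smad3 was at -0.12 between the knockouts. With single libraries left out, the difference between the knockouts ran from -0.39 to 0.39 for Cfc1, -0.12 to 0.14 for Smad2, -0.064 to 0.59 for Smad3 and -0.54 to 0.088 for Tdgf1. Against WT Flk-1+ cells it ran from -0.055 to 0.64 for Smad3 in Lmo2-/- and -0.40 to 0.077 for Acvr2b in Tal1-/-, and for Smad2 between the HE1 genotypes from -0.37 to 0.22. The cause was not tested.

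The calls over all genes moved more. Between the HE1 genotypes there were 212 under quantile normalization, 51 with array weights, 0 in a separate fit, 626 with no FPKM criterion and 86 to 2177 with single libraries left out. Between the Lmo2-/- stages there were 1248 under quantile normalization, 976 with array weights, 1109 in a separate fit and 1645 to 3836 with single libraries left out. Quantile normalization moved the median over all genes in that comparison from 0.30 to 0.02 and the calls from 2379 higher and 328 lower to 685 higher and 563 lower.

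With the replicate number as a block, members called stayed at 0 in the comparisons of genotypes and at 4 between the Lmo2-/- stages, and the 2 genes called between the knockouts became 0. The deviations of same-numbered libraries had correlations from -0.184 to 0.169. Libraries with different numbers were not compared in this way, so this does not settle whether the numbers pair the libraries.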
